A study of Homo sapiens with 6 samples.

Results

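The genes that license DNA replication origins, build the replication fork and supply its nucleotides were followed in RNA from the human osteosarcoma line U2OS. The set holds 44 genes, named by symbol, of the 50550 rows of the deposited gene tables, and all 44 were found. They fall into 11 roles: 6 genes of the origin recognition complex, 3 of helicase loading, the 6 of the MCM2-7 helicase, MCM8 with MCM10, CDC45 with the 4 GINS genes, 4 of DNA polymerase alpha-primase, 5 of polymerases delta and epsilon, 6 of the sliding clamp and its loader, 3 of nucleotide supply, 2 of chromatin assembly and 2 of Okazaki fragment maturation. The rule lists symbols and uses no threshold on these data, but the list was drawn up with earlier results of these data known. The series holds 6 RNA-seq libraries of U2OS cells, 3 titled Lv_LINC00673 with the genotype LINC00673 and 3 titled Lv_NC with the genotype NC. The design text speaks of wildtype cells and of derivatives in which LINC00673, a long non-coding RNA gene, was knocked down. The sources used here do not say what Lv and NC stand for, which reagent was used, for how long, or whether a group's 3 libraries are 3 cultures. The p-values therefore measure only how these 6 libraries vary, and that variation may be technical. All 6 libraries came from this 1 line.

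Origins are licensed in G1 phase, when the origin recognition complex and CDC6 mark them on chromatin and CDT1 brings the MCM2-7 ring to them. Geminin (GMNN) blocks this step after G1. In S phase CDC45 and the GINS complex join the ring to form the active helicase. Polymerase alpha-primase then lays down primers, the RFC complex loads the PCNA clamp, and polymerases epsilon and delta copy the leading and lagging strands. Many of these genes are transcribed under E2F factors as cells enter S phase, and U2OS cells divide continuously in culture. In RNA from a whole culture, fewer cells in S phase and less RNA per cell cannot be told apart.

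LINC00673 itself (chr17:72403322-72592804) was measured at 6.55, 6.23 and 6.38 CPM (counts scaled to a common library size, with TMM factors) in the 3 Lv_LINC00673 libraries and at 9.16, 9.27 and 7.08 CPM in the 3 Lv_NC libraries. All 3 Lv_LINC00673 libraries were lower, but Lv_NC_3 lay close to them. The log2 fold change, always given as Lv_LINC00673 over Lv_NC, was -0.41 (SE 0.16, edgeR adjusted p = 0.0924) and did not pass the threshold of 0.05. On the deposited FPKM scale, which also divides by transcript length, the values were 2.82, 2.73 and 2.80 against 3.53, 3.46 and 2.75, and the groups overlapped. Lv_LINC00673 therefore names libraries by their label here, and each direction below is between libraries so labelled. Total counts ran from 61815841 to 87227980 per library. Of the markers of the U2OS line and its tissue, VIM (2605 and 2055 CPM in the Lv_LINC00673 and Lv_NC groups), FN1, SPARC and COL1A1 were abundant, COL1A2 and SP7 averaged at most 0.102 CPM, and CDKN2A, which U2OS cells do not express, averaged at most 0.0494 CPM. The 9 mesenchymal and bone markers summed to between 4000 and 4390 CPM in the Lv_LINC00673 libraries and between 3120 and 3290 CPM in the Lv_NC libraries. Of 8 blood and immune markers LYZ and HBB had no count, the defining PTPRC averaged at most 0.0853 CPM, and nearly all of the sum of 57.2 to 77.9 CPM was CD68. The sums of the endothelial, epithelial and neural markers were at most 8.17, 23.4 and 60.0 CPM in any library.

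Of the 44 replication genes, all passed the filter on low counts, 16 rose and 5 fell in the Lv_LINC00673 libraries, and 23 did not pass the test (edgeR's quasi-likelihood test, Benjamini-Hochberg adjusted p at most 0.05 over 21933 genes). Those that rose were ORC1, ORC3, ORC4, CDC6, MCM6, MCM8, MCM10, POLA1, PRIM1, POLE, POLE2, PCNA, RFC1, RFC3, RRM1 and RRM2. Those that fell were ORC6, MCM7, POLD2, RFC2 and FEN1. The 16 are 36.4% of the set, against 14.3% of all tested genes called higher, and the 5 are 11.4%, against 12.5% called lower. A total of 4, ORC3, MCM10, POLA1 and RFC1, rose at least 2-fold, against 7.55% of all tested genes. The median log2 fold change was 0.20 over the 44 genes and 0.05 over all tested genes, and the range was -0.51 to 1.42. In 20 of the 44 genes every Lv_LINC00673 library was above every Lv_NC library, and in 9 every one was below. Over all tested genes these were 5189 (23.7%) and 4700 (21.4%) of 21933, so the 9 were near the share of all genes. Summed over the 44 genes, the level was 5279, 5041 and 4998 CPM in the Lv_LINC00673 libraries and 5266, 5400 and 5247 CPM in the Lv_NC libraries. These sums overlapped between the groups. As a share of all counts, without TMM factors, the 44 genes took 0.542, 0.546 and 0.533% in the Lv_LINC00673 libraries and 0.502, 0.502 and 0.498% in the Lv_NC libraries, so the direction depended on the scaling. The genes that rose numbered 5 without Lv_LINC00673_2, 5 without Lv_LINC00673_3, 9 without Lv_NC_2 and 6 without Lv_NC_3 (all genes 6.41, 7.33, 9.16 and 6.9%). Those that fell numbered 8 without Lv_LINC00673_1, 3 without Lv_LINC00673_3 and 2 without any other single library (all genes 14.4, 5.18 and 5.57 to 10.3%). Across the 44 genes the log2 fold change also fell with rising GC content of the transcript (Spearman -0.71), as it did across all tested genes with a mean log2 CPM over 2 (-0.52).

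**Figure D1:**
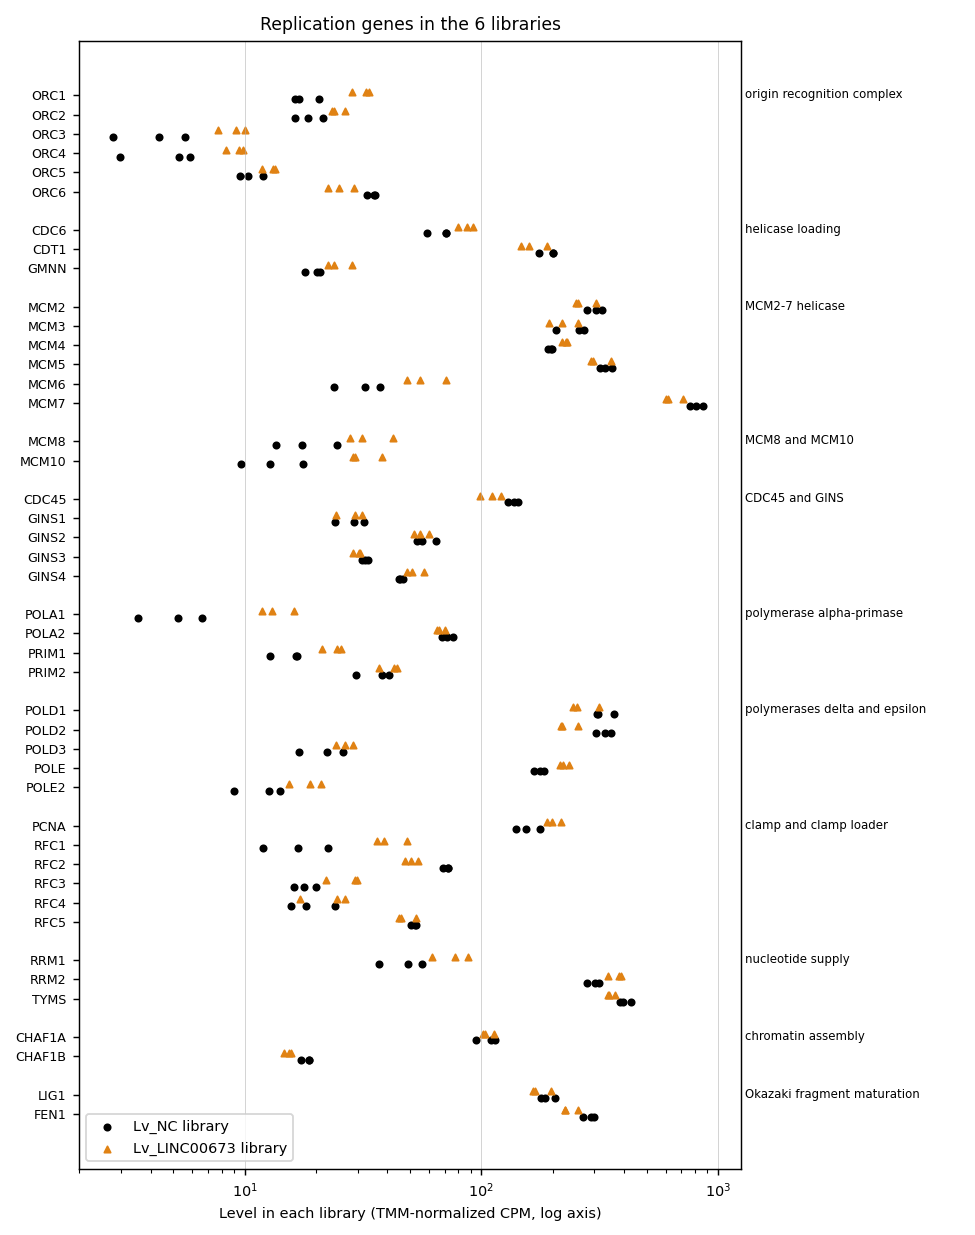
Level of each of the 44 replication genes in the 6 libraries, on a log axis of TMM-normalized CPM, grouped by role. Circles are the 3 Lv_NC libraries and triangles the 3 Lv_LINC00673 libraries; for POLA1 the triangles lie between 11.8 and 16.2 CPM, all above the circles.

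E2F and NF-Y factors bind the promoters of many replication genes, so the bases around the start sites were read from a RefSeq table of promoters (GRCh38.p14), which matched 40 of the 44 genes. MCM4, MCM5, GINS4 and POLD3 had no entry. In the window from 250 bases before to 50 bases after the start, on either strand, TTTCCCGC or TTTGGCGC, 8-base forms of the E2F site, stood in 17 of 40 windows (42.5%), against 2.31% of the 27305 promoters of the table. CCAAT, the NF-Y box, stood in 57.5% against 35.7%, and TTTGAA, the core of the CHR element of genes of G2 and mitosis, in 2.5% against 15.4%. No match of one motif overlapped a match of another in these windows. By call, TTTGGCGC stood in 6 of the 16 genes that rose (37.5%), in none of the 5 that fell and in 1 of the 19 others (5.26%). TTTCCCGC stood in 3 of 16, 1 of 5 and 6 of 19. CCAAT stood in 13 of 16 (81.2%), 3 of 5 and 7 of 19 (36.8%). A match is a run of letters and no evidence of binding. The promoters of the table were not matched to those of the 40 genes for base composition, gene type or expression. Differences between the calls were not tested. Of the genes past the threshold that hold an E2F form, POLA1 and MCM6 had the smallest p among those that rose, and MCM7 was the only one that fell. Their bases are printed to set these 2 genes that rose beside the one that fell, 5′ to 3′ in the direction of transcription, with the E2F matches in capitals. For POLA1 (chrX:24693668-24693917, plus strand) and MCM6 (chr2:135876444-135876693, minus strand) the 250 bases before the start are given, and for MCM7 (chr7:100101567-100101594, minus strand) the match with 10 bases on either side.
POLA1: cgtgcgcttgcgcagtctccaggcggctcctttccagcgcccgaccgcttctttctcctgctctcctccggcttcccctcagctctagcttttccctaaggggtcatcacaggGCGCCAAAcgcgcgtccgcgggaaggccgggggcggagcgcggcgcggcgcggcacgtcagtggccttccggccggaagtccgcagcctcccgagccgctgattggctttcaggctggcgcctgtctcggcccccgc
MCM6: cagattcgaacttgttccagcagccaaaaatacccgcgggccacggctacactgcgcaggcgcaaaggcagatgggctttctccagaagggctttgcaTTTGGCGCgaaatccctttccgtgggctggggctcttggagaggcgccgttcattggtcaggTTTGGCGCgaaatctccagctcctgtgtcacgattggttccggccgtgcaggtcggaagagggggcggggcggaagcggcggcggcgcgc
MCM7: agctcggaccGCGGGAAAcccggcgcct

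MCM6 holds TTTGGCGC at 2 places, 152 and 90 bases before the start, both read in the direction of transcription. POLA1 holds the same site 1 time on the opposite strand, read here as GCGCCAAA, 137 bases before the start. MCM7 holds the other form on the opposite strand, read as GCGGGAAA, 187 bases before the start, and GENCODE places an exon within the 250 bases before this start, which it does not for POLA1 or MCM6.

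In the origin recognition complex, the 6-subunit ring that marks origins, ORC1, ORC3 and ORC4 rose, ORC6 fell, and ORC2 and ORC5 did not pass. In what follows, the 3 values of a group are for its libraries 1, 2 and 3 in that order, and every adjusted p is from edgeR's test unless another is named. ORC1 (chr1:52372829-52409503) is the ATPase subunit that human cells remake in each cycle. ORC1 stood at 28.4, 33.7 and 32.5 CPM in the Lv_LINC00673 libraries and at 20.5, 16.9 and 16.3 CPM in the Lv_NC libraries. Every Lv_LINC00673 library was above every Lv_NC library, Lv_LINC00673_2 being the highest and Lv_NC_3 the lowest of the 6. ORC1 rose by 0.82 on the log2 scale (SE 0.14, adjusted p = 0.00593). ORC3 (chr6:87590135-87677823) is a core subunit of the ring. The ORC3 level was 7.75, 10.01 and 9.15 CPM in the Lv_LINC00673 libraries against 5.58, 2.78 and 4.35 CPM in the Lv_NC libraries. Lv_LINC00673_2 was the highest library and Lv_NC_2 the lowest, and the groups did not overlap. ORC3 was higher with a log2 fold change of 1.08 (SE 0.25, adjusted p = 0.0167). ORC4 (chr2:147930396-148021551) is another ATPase of the ring and the lowest of the 44 genes per length, at 0.661 ± 0.229 FPKM (SD, n = 3) in the Lv_NC libraries. For ORC4 the Lv_LINC00673 libraries gave 8.35, 9.87 and 9.45 CPM and the Lv_NC libraries 5.88, 2.98 and 5.28 CPM. All 3 Lv_LINC00673 libraries lay above the 3 Lv_NC libraries, Lv_LINC00673_1 and Lv_NC_1 being nearest to each other. ORC4 had a log2 fold change of 0.97 (SE 0.25, adjusted p = 0.0229).

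ORC6 (chr16:46689659-46698394) is the smallest subunit and is held less tightly than the others. ORC6 reached 22.6, 25.1 and 29.04 CPM in the Lv_LINC00673 libraries, compared with 35.6, 33.0 and 35.1 CPM in the Lv_NC libraries. No library overlapped the other group, with Lv_NC_1 highest and Lv_LINC00673_1 lowest. ORC6 fell by 0.44 on the log2 scale (SE 0.12, adjusted p = 0.0316). ORC2 had a log2 fold change of 0.39 (adjusted p = 0.0669) with groups that did not overlap, and ORC5 a log2 fold change of 0.27 (adjusted p = 0.202) with groups that did. The ORC6 to ORC1 ratio, both in FPKM, was 1.63, 1.53 and 1.92 in the Lv_LINC00673 libraries and 3.47, 3.96 and 4.62 in the Lv_NC libraries. All 3 ratios were lower in the Lv_LINC00673 libraries. This and the later subunit ratios were picked without a rule, and each restates the separate changes of its 2 genes. The ORC1 call held with each library left out in turn. With 1 library left out, ORC3 did not pass without Lv_LINC00673_2, Lv_LINC00673_3 or Lv_NC_3 (adjusted p = 0.0575 to 0.0615), ORC4 did not pass without Lv_LINC00673_2, Lv_LINC00673_3 or Lv_NC_3 (adjusted p = 0.0599 to 0.0757), and ORC6 did not pass without Lv_LINC00673_2, Lv_NC_1, Lv_NC_2 or Lv_NC_3 (adjusted p = 0.055 to 0.0942). With an offset for each library's trend with GC content and transcript length, the ORC4 change was 0.25 (adjusted p = 0.255) and that of ORC2 -0.12 (adjusted p = 0.431), the opposite direction, and with library totals in place of TMM the ORC6 change was -0.27 (adjusted p = 0.167) and ORC2 passed (0.55, adjusted p = 0.0285).

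Among the helicase loaders, CDC6 rose and CDT1 and GMNN did not pass. CDC6 (chr17:40287879-40304657) is the ATPase that joins the origin recognition complex before the ring is loaded. CDC6 stood at 79.6, 92.1 and 87.3 CPM in the Lv_LINC00673 libraries and at 70.9, 58.9 and 70.9 CPM in the Lv_NC libraries. There was no overlap between the groups, with Lv_LINC00673_1 and Lv_NC_1 closest together. CDC6 was higher with a log2 fold change of 0.37 (SE 0.11, adjusted p = 0.0342). CDT1 (chr16:88803789-88809258) escorts MCM2-7 to origins. The CDT1 level was 190.0, 147 and 159 CPM in the Lv_LINC00673 libraries against 176, 201 and 199.8 CPM in the Lv_NC libraries. The groups overlapped, since Lv_LINC00673_1 was above Lv_NC_1. CDT1 did not pass, with a log2 fold change of -0.22 (SE 0.11, adjusted p = 0.189). GMNN, the inhibitor of CDT1, had a log2 fold change of 0.34 (adjusted p = 0.0898), and its groups did not overlap. The CDT1 to GMNN ratio in FPKM was 3.97, 2.44 and 3.14 in the Lv_LINC00673 libraries and 4.61, 4.69 and 4.51 in the Lv_NC libraries. It was lower in each Lv_LINC00673 library than in any Lv_NC library. When libraries were left out singly, CDC6 did not pass without Lv_LINC00673_2, Lv_LINC00673_3, Lv_NC_2 or Lv_NC_3 (adjusted p = 0.0735 to 0.128). With the GC and length offset the CDC6 change was 0.11 (adjusted p = 0.191), and with library totals GMNN passed (0.51, adjusted p = 0.0331).

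The 6 MCM2-7 genes encode 1 subunit each of a ring that is built in equal parts, yet MCM6 rose, MCM7 fell and the other 4 did not pass. MCM6 (chr2:135839626-135876443) was the lowest of the 6 per length, at 7.548 ± 1.72 FPKM (SD, n = 3) in the Lv_NC libraries. For MCM6 the Lv_LINC00673 libraries gave 48.7, 71.0 and 55.3 CPM and the Lv_NC libraries 37.2, 23.9 and 32.1 CPM. Lv_LINC00673_2 was the highest library and Lv_NC_2 the lowest, and the groups did not overlap. MCM6 rose by 0.91 on the log2 scale (SE 0.19, adjusted p = 0.0112). MCM7 (chr7:100092728-100101397) was the highest of all 44 genes per length, at 293.2 ± 16.1 FPKM (SD, n = 3) in the Lv_NC libraries. MCM7 reached 714, 617 and 605 CPM in the Lv_LINC00673 libraries, compared with 809, 866 and 762 CPM in the Lv_NC libraries. All 3 Lv_LINC00673 libraries lay below the 3 Lv_NC libraries, Lv_LINC00673_1 and Lv_NC_3 being nearest to each other. MCM7 was lower with a log2 fold change of -0.33 (SE 0.09, adjusted p = 0.0311). MCM2 (chr3:127598411-127622436), the subunit that also binds histones, lies next to MCM6 in the assembled ring. MCM2 stood at 304, 250.3 and 257 CPM in the Lv_LINC00673 libraries and at 279.6, 323 and 305 CPM in the Lv_NC libraries. The groups overlapped, since Lv_LINC00673_1 was above Lv_NC_1. MCM2 did not pass, with a log2 fold change of -0.16 (SE 0.10, adjusted p = 0.271).

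MCM3, MCM4 and MCM5 had log2 fold changes of -0.14 (adjusted p = 0.492), 0.20 (adjusted p = 0.0754) and -0.10 (adjusted p = 0.486), and only the MCM4 groups were apart. The MCM7 to MCM6 ratio in FPKM was 22.3, 13.2 and 16.6 in the Lv_LINC00673 libraries and 32.4, 54 and 35.3 in the Lv_NC libraries. The groups did not overlap, and Lv_NC_2 had the highest ratio. The MCM7 to MCM2 ratio was 3.26, 3.43 and 3.26 in the Lv_LINC00673 libraries and 3.94, 3.66 and 3.4 in the Lv_NC libraries, and these groups overlapped. The MCM6 call held with each library left out. On leaving out 1 library, MCM7 did not pass without Lv_LINC00673_2, Lv_LINC00673_3, Lv_NC_1, Lv_NC_2 or Lv_NC_3 (adjusted p = 0.057 to 0.118). The MCM7 change was -0.11 with the GC and length offset (adjusted p = 0.16) and -0.17 with library totals (adjusted p = 0.134), where MCM4 passed (0.37, adjusted p = 0.00952).

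MCM8 and MCM10, which carry the family name but lie outside the ring, both rose. MCM8 (chr20:5950652-5998977) works with MCM9 in repair by homologous recombination. The MCM8 level was 27.9, 42.5 and 31.4 CPM in the Lv_LINC00673 libraries against 24.6, 13.6 and 17.4 CPM in the Lv_NC libraries. There was no overlap between the groups, with Lv_LINC00673_1 and Lv_NC_1 closest together. MCM8 rose by 0.87 on the log2 scale (SE 0.23, adjusted p = 0.0269). MCM10 (chr10:13161558-13211110) helps to switch on the loaded helicase and is not an ATPase of the ring type. For MCM10 the Lv_LINC00673 libraries gave 29.2, 38.1 and 28.6 CPM and the Lv_NC libraries 17.6, 9.65 and 12.8 CPM. Every Lv_LINC00673 library was above every Lv_NC library, Lv_LINC00673_2 being the highest and Lv_NC_2 the lowest of the 6. MCM10 was higher with a log2 fold change of 1.26 (SE 0.22, adjusted p = 0.00723). In fits without 1 library, MCM8 did not pass without Lv_LINC00673_2, Lv_LINC00673_3, Lv_NC_2 or Lv_NC_3 (adjusted p = 0.0616 to 0.0997). The MCM8 change with the GC and length offset was 0.27 (adjusted p = 0.126). The MCM10 call held under the offset and with each library left out.

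None of CDC45 and the 4 GINS genes, whose products complete the active helicase, passed edgeR's test (1 of the 5 at an unadjusted p under 0.05), while DESeq2, limma-voom and edgeR with RLE factors each called 1, CDC45. CDC45 (chr22:19479466-19520612) came closest. CDC45 reached 121, 99.0 and 111 CPM in the Lv_LINC00673 libraries, compared with 129, 137 and 143 CPM in the Lv_NC libraries. Lv_NC_3 was the highest library and Lv_LINC00673_2 the lowest, and the groups did not overlap. CDC45 did not pass, with a log2 fold change of -0.31 (SE 0.10, adjusted p = 0.0505). CDC45 passed when Lv_LINC00673_1 was left out (adjusted p = 0.0197) and was -0.06 with the GC and length offset (adjusted p = 0.53). The log2 fold changes of GINS1, GINS2, GINS3 and GINS4 were 0.00, -0.06, -0.11 and 0.19, with adjusted p from 0.184 to 0.992. The GINS2 to GINS1 ratio in FPKM was 2.67, 2.32 and 2.41 in the Lv_LINC00673 libraries and 2.11, 2.92 and 2.77 in the Lv_NC libraries, and the groups overlapped. Under the offset GINS1 was lower (-0.35, adjusted p = 0.00986), and with library totals GINS4 was higher (0.36, adjusted p = 0.0351).

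In polymerase alpha-primase, POLA1 and PRIM1, the 2 catalytic subunits, rose, and POLA2 and PRIM2, their partner subunits, did not pass. POLA1 (chrX:24693918-24996986) is the DNA polymerase of the complex and had the highest fold change of the 44 genes. POLA1 stood at 11.8, 16.2 and 13.1 CPM in the Lv_LINC00673 libraries and at 6.59, 3.53 and 5.24 CPM in the Lv_NC libraries. All 3 Lv_LINC00673 libraries lay above the 3 Lv_NC libraries, Lv_LINC00673_1 and Lv_NC_1 being nearest to each other. POLA1 rose by 1.42 on the log2 scale (SE 0.24, adjusted p = 0.00647). PRIM1 (chr12:56731580-56752323) is the primase that makes the RNA primer. The PRIM1 level was 21.3, 24.5 and 25.5 CPM in the Lv_LINC00673 libraries against 16.7, 12.8 and 16.4 CPM in the Lv_NC libraries. No library overlapped the other group, with Lv_LINC00673_3 highest and Lv_NC_2 lowest. PRIM1 was higher with a log2 fold change of 0.63 (SE 0.15, adjusted p = 0.0166). POLA2 and PRIM2 had log2 fold changes of -0.10 (adjusted p = 0.446) and 0.19 (adjusted p = 0.344), with groups that overlapped. The POLA2 to POLA1 ratio in FPKM was 8.97, 7.08 and 8.19 in the Lv_LINC00673 libraries and 17, 31.4 and 22.6 in the Lv_NC libraries. The PRIM2 to PRIM1 ratio was 1.1, 1.1 and 1.09 in the Lv_LINC00673 libraries and 1.44, 1.42 and 1.57 in the Lv_NC libraries. Both ratios were lower in every Lv_LINC00673 library. The POLA1 call held with each library left out. With 1 library left out, PRIM1 did not pass without Lv_LINC00673_2 or Lv_LINC00673_3 (adjusted p = 0.0608 to 0.0713).

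Of the polymerase delta and epsilon genes, POLE and POLE2 rose, POLD2 fell, and POLD1 and POLD3 did not pass. POLE (chr12:132623762-132687342) is the catalytic subunit of the leading-strand polymerase. For POLE the Lv_LINC00673 libraries gave 234, 215 and 220.4 CPM and the Lv_NC libraries 167, 184 and 177 CPM. There was no overlap between the groups, with Lv_LINC00673_2 and Lv_NC_2 closest together. POLE had a log2 fold change of 0.34 (SE 0.08, adjusted p = 0.0172). POLE2 (chr14:49643555-49688214) is its second subunit. POLE2 reached 15.4, 20.9 and 18.9 CPM in the Lv_LINC00673 libraries, compared with 14.1, 8.97 and 12.6 CPM in the Lv_NC libraries. Every Lv_LINC00673 library was above every Lv_NC library, Lv_LINC00673_2 being the highest and Lv_NC_2 the lowest of the 6. POLE2 rose by 0.63 on the log2 scale (SE 0.20, adjusted p = 0.0458). POLD2 (chr7:44114680-44124325) is the small subunit that joins the catalytic POLD1 to POLD3 in the lagging-strand polymerase, and it had the lowest fold change of the 44 genes. POLD2 stood at 257, 217 and 219.5 CPM in the Lv_LINC00673 libraries and at 304, 353 and 333 CPM in the Lv_NC libraries. Lv_NC_2 was the highest library and Lv_LINC00673_2 the lowest, and the groups did not overlap. POLD2 was lower with a log2 fold change of -0.51 (SE 0.10, adjusted p = 0.00891).

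The log2 fold change of POLD1 was -0.28 (adjusted p = 0.111) and that of POLD3 0.28 (adjusted p = 0.245), and the groups overlapped in both. The POLD2 to POLD3 ratio in FPKM was 19.9, 10.9 and 15 in the Lv_LINC00673 libraries and 22, 37.3 and 27.6 in the Lv_NC libraries. The groups did not overlap, although Lv_LINC00673_1 and Lv_NC_1 were close. The POLE to POLE2 ratio was 3.45, 2.31 and 2.47 in the Lv_LINC00673 libraries and 2.67, 4.54 and 3.15 in the Lv_NC libraries, and these groups overlapped. The POLD2 call held with each library left out and under the offset (-0.20, adjusted p = 0.0128). When libraries were left out singly, POLE did not pass without Lv_LINC00673_2, Lv_LINC00673_3, Lv_NC_1 or Lv_NC_3 (adjusted p = 0.0529 to 0.0676), and POLE2 did not pass without Lv_LINC00673_2, Lv_LINC00673_3, Lv_NC_2 or Lv_NC_3 (adjusted p = 0.103 to 0.155).

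Of the clamp and its loader, PCNA, RFC1 and RFC3 rose, RFC2 fell, and RFC4 and RFC5 did not pass. PCNA (chr20:5114953-5126622) is the ring that tethers polymerases to DNA and a standard marker of cycling cells. The PCNA level was 189, 199 and 217 CPM in the Lv_LINC00673 libraries against 177, 139.8 and 155 CPM in the Lv_NC libraries. All 3 Lv_LINC00673 libraries lay above the 3 Lv_NC libraries, Lv_LINC00673_1 and Lv_NC_1 being nearest to each other. PCNA had a log2 fold change of 0.36 (SE 0.11, adjusted p = 0.038). RFC1 (chr4:39287456-39366362) is the large subunit found only in the loader that places PCNA at primers. For RFC1 the Lv_LINC00673 libraries gave 36.1, 48.7 and 38.9 CPM and the Lv_NC libraries 22.5, 11.9 and 16.8 CPM. No library overlapped the other group, with Lv_LINC00673_2 highest and Lv_NC_2 lowest. RFC1 rose by 1.27 on the log2 scale (SE 0.23, adjusted p = 0.00718). RFC2 (chr7:74231502-74254399) is a small subunit shared by all the RFC-type clamp loaders. RFC2 reached 54.0, 50.4 and 47.7 CPM in the Lv_LINC00673 libraries, compared with 72.6, 72.0 and 68.7 CPM in the Lv_NC libraries. There was no overlap between the groups, with Lv_LINC00673_1 and Lv_NC_3 closest together. RFC2 was lower with a log2 fold change of -0.49 (SE 0.09, adjusted p = 0.00795). RFC3 (chr13:33818149-33977377) is another of the shared small subunits. RFC3 stood at 22.0, 29.4 and 29.9 CPM in the Lv_LINC00673 libraries and at 20.1, 16.1 and 17.8 CPM in the Lv_NC libraries. Every Lv_LINC00673 library was above every Lv_NC library, Lv_LINC00673_3 being the highest and Lv_NC_2 the lowest of the 6. RFC3 had a log2 fold change of 0.59 (SE 0.16, adjusted p = 0.0251).

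RFC4 and RFC5, the other small subunits, had log2 fold changes of 0.24 (adjusted p = 0.441) and -0.11 (adjusted p = 0.452), and their groups overlapped. The RFC2 to RFC1 ratio in FPKM was 4.45, 3.02 and 3.72 in the Lv_LINC00673 libraries and 9.47, 17.3 and 12.7 in the Lv_NC libraries. Every Lv_NC library had more RFC2 per RFC1 than any Lv_LINC00673 library. The calls of RFC1 and RFC2 held with each library left out. On leaving out 1 library, PCNA did not pass without Lv_LINC00673_2, Lv_LINC00673_3, Lv_NC_2 or Lv_NC_3 (adjusted p = 0.0974 to 0.144), and RFC3 did not pass without Lv_LINC00673_2, Lv_LINC00673_3, Lv_NC_2 or Lv_NC_3 (adjusted p = 0.0746 to 0.103). Under the GC and length offset the changes of RFC2 (-0.16, adjusted p = 0.13) and RFC3 (0.20, adjusted p = 0.127) did not pass.

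In nucleotide supply, both subunits of ribonucleotide reductase, RRM1 and RRM2, rose, and TYMS did not pass. RRM1 (chr11:4094685-4138932) is the large subunit of the enzyme that makes deoxyribonucleotides. The RRM1 level was 61.7, 88.1 and 77.4 CPM in the Lv_LINC00673 libraries against 56.1, 37.0 and 49.1 CPM in the Lv_NC libraries. Lv_LINC00673_2 was the highest library and Lv_NC_2 the lowest, and the groups did not overlap. RRM1 rose by 0.68 on the log2 scale (SE 0.18, adjusted p = 0.0243). RRM2 (chr2:10122568-10211010) is its small subunit, the one made in S phase. For RRM2 the Lv_LINC00673 libraries gave 342, 380.3 and 388 CPM and the Lv_NC libraries 314, 280.0 and 301 CPM. All 3 Lv_LINC00673 libraries lay above the 3 Lv_NC libraries, Lv_LINC00673_1 and Lv_NC_1 being nearest to each other. RRM2 was higher with a log2 fold change of 0.31 (SE 0.09, adjusted p = 0.0301). TYMS (chr18:657653-673578) makes dTMP, the precursor of the DNA base thymine. TYMS reached 368, 342 and 346 CPM in the Lv_LINC00673 libraries, compared with 385, 398 and 427 CPM in the Lv_NC libraries. No library overlapped the other group, with Lv_NC_3 highest and Lv_LINC00673_2 lowest. TYMS did not pass, with a log2 fold change of -0.20 (SE 0.08, adjusted p = 0.0985). In fits without 1 library, RRM1 did not pass without Lv_LINC00673_2, Lv_LINC00673_3, Lv_NC_2 or Lv_NC_3 (adjusted p = 0.0552 to 0.0914), and RRM2 did not pass without Lv_LINC00673_2, Lv_LINC00673_3, Lv_NC_2 or Lv_NC_3 (adjusted p = 0.0891 to 0.128).

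Of the genes that act behind the fork, FEN1 fell, and LIG1, CHAF1A and CHAF1B did not pass. FEN1 (chr11:61792911-61797238) cuts the flap at the end of each Okazaki fragment. FEN1 stood at 257, 226 and 226 CPM in the Lv_LINC00673 libraries and at 290.4, 299 and 268 CPM in the Lv_NC libraries. There was no overlap between the groups, with Lv_LINC00673_1 and Lv_NC_3 closest together. FEN1 fell by 0.28 on the log2 scale (SE 0.09, adjusted p = 0.0496). With 1 library left out, FEN1 did not pass without Lv_LINC00673_2, Lv_LINC00673_3, Lv_NC_1, Lv_NC_2 or Lv_NC_3 (adjusted p = 0.0738 to 0.158). Its change was -0.01 under the GC and length offset (adjusted p = 0.955) and -0.11 with library totals (adjusted p = 0.29). LIG1, the ligase that seals the fragments, had a log2 fold change of -0.10 (adjusted p = 0.481). CHAF1A and CHAF1B, subunits of the chaperone CAF-1 that places histones on new DNA, had changes of 0.00 (adjusted p = 0.988) and -0.26 (adjusted p = 0.147). Under the offset CHAF1A was higher (0.20, adjusted p = 0.0443) and CHAF1B lower (-0.34, adjusted p = 0.03).

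**Figure D2:**
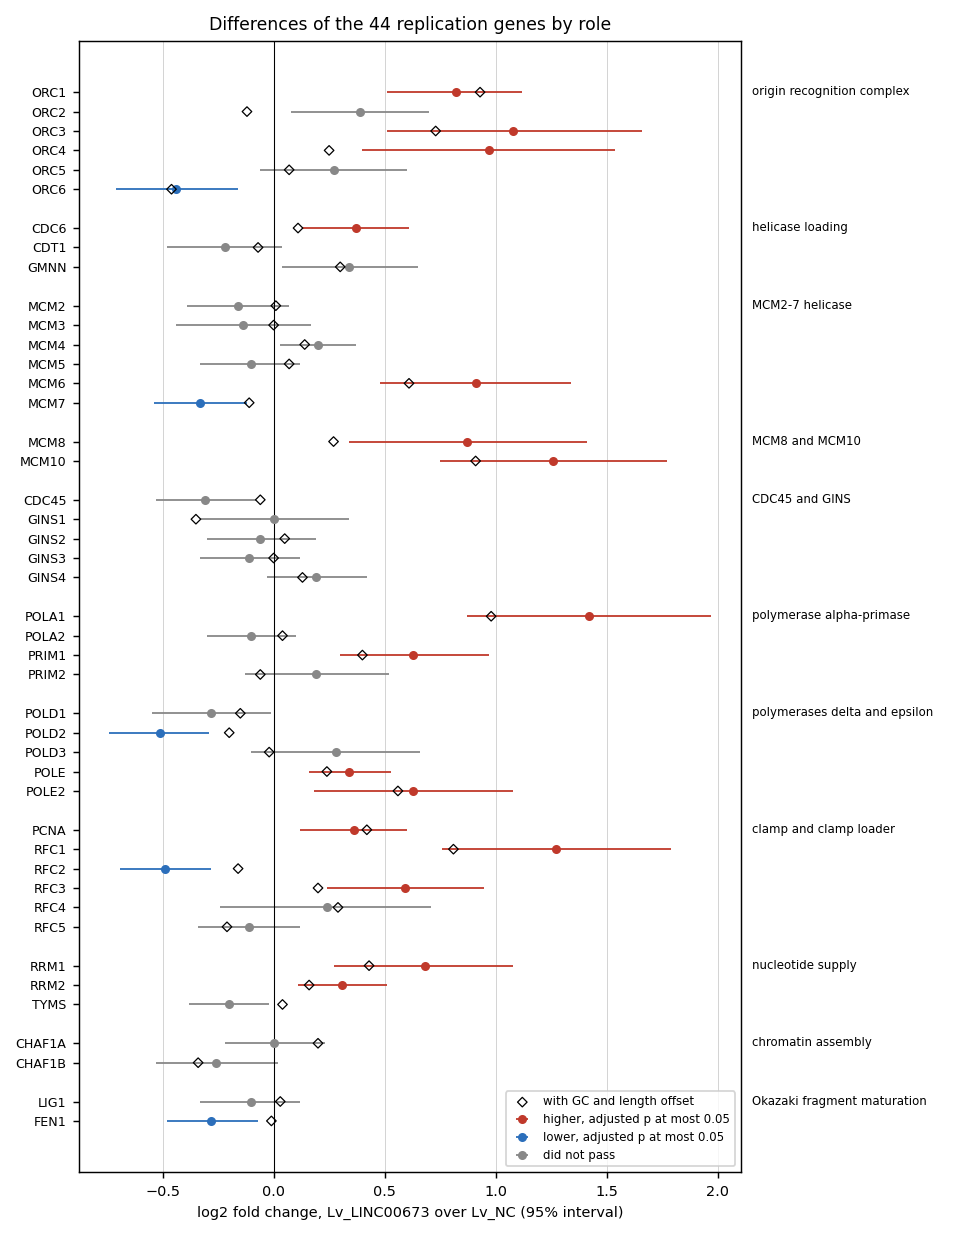
log2 fold change of each of the 44 genes, Lv_LINC00673 over Lv_NC, with 95% intervals, by role. The estimates run from -0.51 (POLD2) to 1.42 (POLA1), and colour marks the 16 genes that rose and the 5 that fell.

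**Figure D3:**
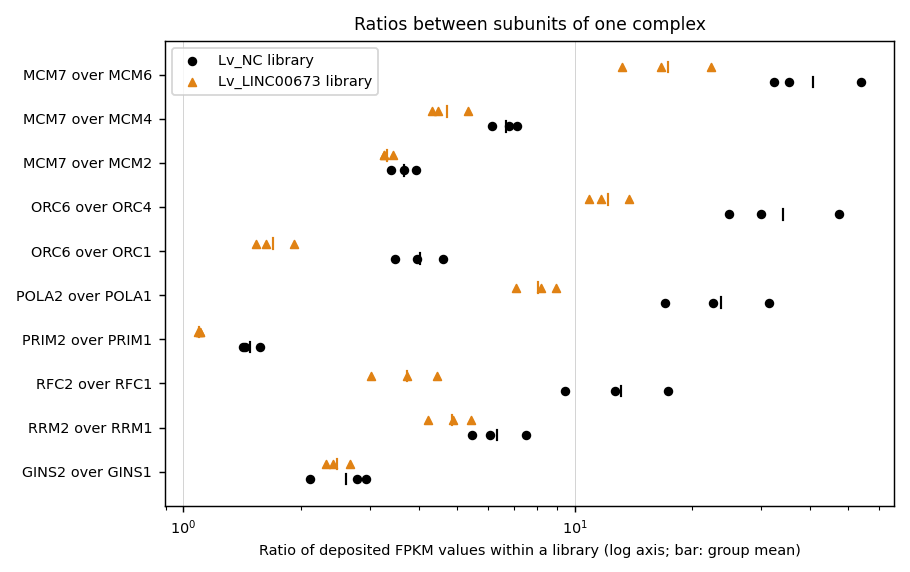
FPKM ratios between subunits of the same complex in each of the 6 libraries, on a log axis, with the 2 groups side by side. The MCM7 to MCM6 ratio lies between 13.2 and 22.3 in the Lv_LINC00673 libraries and between 32.4 and 54 in the Lv_NC libraries.

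Per length, the order of the genes in the Lv_NC libraries began with MCM7 (293.2 ± 16.1 FPKM, SD, n = 3), TYMS (227.9 ± 12.6), POLD2 (157.1 ± 8.33), FEN1 (128.9 ± 6.32) and PCNA (111.8 ± 14.7). It ended with ORC3 (1.511 ± 0.543), POLA1 (0.8454 ± 0.244) and ORC4 (0.661 ± 0.229). FEN1 and PCNA lay within their spread of each other, as did POLA1 and ORC4. In the Lv_LINC00673 libraries PCNA (160.5 ± 14.3 FPKM) was ahead of POLD2 (121.1 ± 11.2) and FEN1 (119.1 ± 5.68), and POLA1 and ORC4 again came last. Across the 44 genes the log2 fold change was lower the more abundant the gene, with a Spearman correlation of -0.62 with mean log2 CPM. All genes of this correlation share the same 6 libraries.

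The changes varied with the base composition of the transcripts. Across the 44 genes the log2 fold change had a Spearman correlation of -0.71 with the GC content of the longest annotated transcript and of 0.35 with its length, and the values over all 11065 tested genes with a mean log2 CPM over 2 were -0.52 and 0.46. These are descriptions across genes, which share their libraries. Most subunit ratios set a gene of higher GC over one of lower GC, such as MCM7 (57.6%) over MCM6 (43.1%) and POLA2 (54.5%) over POLA1 (42.9%). In ORC6 (44.4%) over ORC1 (50.7%) and MCM7 over MCM2 (58.1%) the upper gene was lower in GC. The part of GC content in these ratios was not tested. The genes that rose had a median GC content of 43.0% (range 37.7 to 56.4%), those that fell 53.7% (44.4 to 59.1%) and the others 48.7% (40.1 to 65.0%). In the GC bands that follow, all genes means all of the 11065 in that band. Below 45% GC lie 19 of the 44 genes, of which 11 rose and ORC6 fell, and their median log2 fold change was 0.63, against 0.42 for all such genes, of which 39.2% were called higher and 6.56% lower. From 45 to 50% lie 10 genes, of which 3 rose, with a median of 0.20 against -0.02 for all such genes, of which 20.3% were called higher and 20.1% lower. From 50 to 55% lie 6, of which ORC1 rose and RFC2 and FEN1 fell, with a median of -0.21 against -0.20 for all, of which 8.9% were called higher and 29.7% lower. At 55% and above lie 9, of which POLE rose and MCM7 and POLD2 fell, with a median of -0.16 against -0.27 for all, of which 1.86% were called higher and 32.4% lower.

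**Figure D4:**
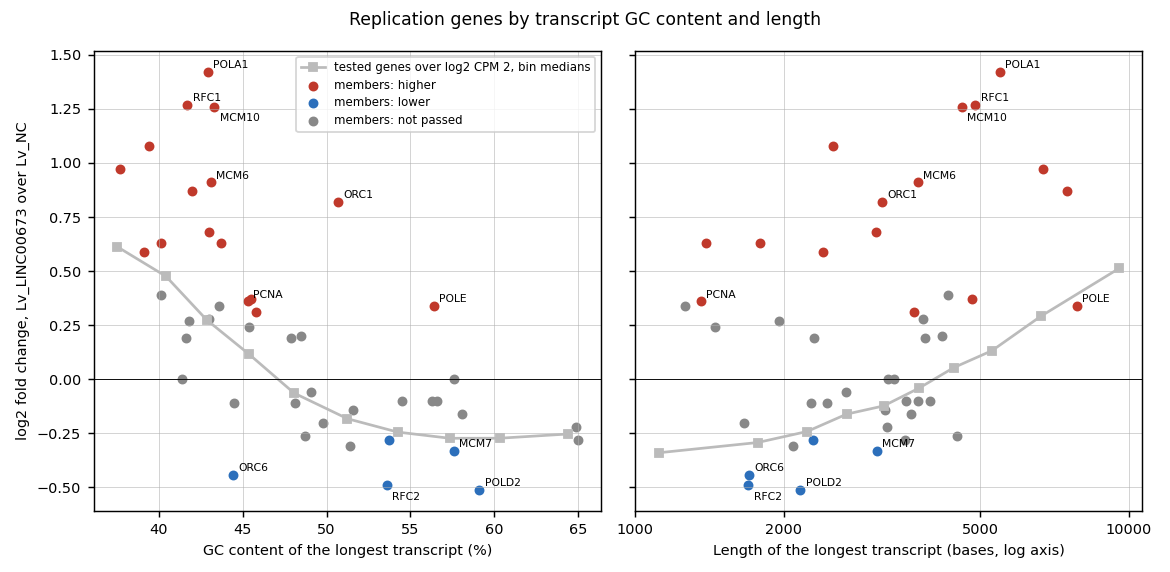
log2 fold change of the 44 genes against the GC content (left) and length (right, log axis) of the longest transcript, coloured by call, with the grey line giving the median of 10 equal bins of the tested genes with a mean log2 CPM over 2. The genes that rose centre on 43.0% GC and those that fell on 53.7%, and ORC1, POLE and PCNA lie above the grey line.

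The same composition also moved between libraries of 1 group. Below 45% GC lie 3707 of the tested genes with a mean log2 CPM over 2. Relative to each gene's mean over the 6 libraries, their median level was 0.00, 0.38 and 0.28 (log2) in the Lv_LINC00673 libraries and -0.02, -0.46 and -0.16 in the Lv_NC libraries. Lv_LINC00673_1 and Lv_NC_1 were thus almost level. Of the 16 replication genes that rose, Lv_LINC00673_1 was the lowest of its group in 14, Lv_NC_1 the highest of its group in 15 and Lv_NC_2 the lowest of its group in 14. Their median log2 level relative to the Lv_NC mean was 0.56, 0.92 and 0.77 in the Lv_LINC00673 libraries and 0.27, -0.35 and 0.05 in the Lv_NC libraries. These 16 were picked by their call in the same libraries, so the gap between the groups in these medians was set beforehand. The values serve only to show the spread between libraries of a group. The cause of this variation between libraries, and its part in the group difference, was not tested. When a smooth offset for GC content and transcript length was fitted in each library, 13 of the 44 genes were higher (15.3% of all genes fitted) and 4 lower (17.8%), with a median of 0.07. ORC1, ORC3, MCM6, MCM10, POLA1, PRIM1, POLE, POLE2, PCNA, RFC1, RRM1 and RRM2 stayed higher and ORC6 and POLD2 stayed lower. Of these, the log2 fold changes that shrank by over 1.5 times were those of PRIM1 (0.63 to 0.40), RFC1 (1.27 to 0.81), RRM1 (0.68 to 0.43), RRM2 (0.31 to 0.16) and POLD2 (-0.51 to -0.20). ORC4, CDC6, MCM8 and RFC3 no longer passed as higher, nor MCM7, RFC2 and FEN1 as lower.

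Scaling also moved the split. With library totals in place of TMM, the median of all tested genes rose by 0.17, 20 of the 44 genes were higher (18.5% of all genes) and 2 lower (5.58%), and the share of higher among the calls went from 76.2 to 90.9% in the set and from 53.5 to 76.8% over all genes. On log2(FPKM + 1), 18 were higher (15.4% of all genes) and POLD2 and RFC2 lower (5.74%). ORC6, MCM7 and FEN1 did not pass as lower under either. Single libraries weighed on the counts too. Without Lv_LINC00673_1, 16 were higher and 8 lower (all genes 14.2 and 14.4%). Without Lv_LINC00673_2 the counts were 5 and 2 (6.41 and 5.57%), and without Lv_LINC00673_3 they were 5 and 3 (7.33 and 5.18%). Leaving out Lv_NC_1 gave 16 and 2 (14.2 and 10.3%), leaving out Lv_NC_2 gave 9 and 2 (9.16 and 6.68%), and leaving out Lv_NC_3 gave 6 and 2 (6.9 and 5.84%). Called in every one of these 6 fits were ORC1, MCM6, MCM10, POLA1 and RFC1 as higher and POLD2 and RFC2 as lower. The share of all tested genes called in all 6 fits was not counted, so this list has no background beside it.

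Of the 44 genes, 20 overlap no other gene in the RefSeq table, and 24 overlap at least 1. The sources used here do not state if reads were counted by strand, so reads from such pairs may not be told apart. PCNA-AS1, antisense to PCNA, had at most 348 counts in a library and MCM8-AS1 at most 17. MCM7 overlaps AP4M1 (at most 3264 counts) and hosts the microRNA genes MIR25, MIR93 and MIR106B (at most 48, 8 and 7), TYMS overlaps ENOSF1 (at most 2479) and TYMSOS (445), and ORC1 overlaps PRPF38A (at most 3136). RRM2 has a close relative in RRM2B (at most 2245 counts), and the pseudogene PCNAP1 had 0 counts. ORC3, at 225 to 670 counts, overlaps AKIRIN2 (at most 3430), and ORC4, at 241 to 661 counts, overlaps MBD5 (at most 510) and ACVR2A (at most 480). GINS2, RFC5 and CHAF1A overlap GSE1, WSB2 and UBXN6, which had at most 12686, 9685 and 11634 counts. Values of the 24 genes carry that uncertainty.

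A list of 50 further replication genes, all tested, served for comparison: 18 rose and 5 fell, and the median log2 fold change was 0.20. The 18 were 36.0% of the list, against 14.3% of all tested genes called higher. The share of the list that fell was below the 12.5% of all tested genes called lower. Those that rose numbered 9 without Lv_LINC00673_2, 9 without Lv_LINC00673_3 and 9 without Lv_NC_3 (all genes 6.41, 7.33 and 6.9%). Those that fell numbered 2, 2 and 3 in the same order (all genes 5.57, 5.18 and 5.84%). They also numbered 3 without Lv_NC_1 or Lv_NC_2 (all genes 10.3 and 6.68%). The 4 highest among those that rose were WDHD1, TOPBP1, ATAD5 and CLSPN. WDHD1 ties polymerase alpha to the helicase. The WDHD1 level was 19.3, 32.5 and 21.6 CPM in the Lv_LINC00673 libraries against 11.6, 5.21 and 7.16 CPM in the Lv_NC libraries. Every Lv_LINC00673 library was above every Lv_NC library, Lv_LINC00673_2 being the highest and Lv_NC_2 the lowest of the 6. WDHD1 was higher with a log2 fold change of 1.61 (SE 0.31, adjusted p = 0.00896). TOPBP1, needed to fire origins and to start the checkpoint, had a log2 fold change of 1.49 (adjusted p = 0.0045), ATAD5, which unloads PCNA, of 1.36 (adjusted p = 0.0171) and CLSPN, which carries the checkpoint signal at the fork, of 1.08 (adjusted p = 0.00952). The 4 lowest were POLB, a repair polymerase, at -0.58 (adjusted p = 0.0196), LRWD1, a partner of the origin recognition complex, at -0.50 (adjusted p = 0.0127), DCTD, a deaminase of nucleotide supply, at -0.41 (adjusted p = 0.00977) and RPA2, a subunit of the single-strand binding complex, at -0.28 (adjusted p = 0.0301). Under the GC and length offset the changes were 0.93 for WDHD1, 0.63 for ATAD5 and -0.23 for LRWD1, and DCTD (-0.12, adjusted p = 0.144) and RPA2 (-0.13, adjusted p = 0.147) no longer passed. With library totals POLB (-0.41, adjusted p = 0.0703) and RPA2 (-0.12, adjusted p = 0.264) did not pass. ATAD5 was not called without Lv_LINC00673_2, Lv_LINC00673_3 or Lv_NC_3 (adjusted p up to 0.0724), POLB without Lv_LINC00673_2 or Lv_NC_3 (up to 0.0749), LRWD1 without Lv_LINC00673_3 (0.0569), and RPA2 without any library but Lv_LINC00673_1 (up to 0.0946). The 2 forms of the E2F site stood in 5 of the 39 of their promoters in the table (12.8%). Under the GC and length offset 16 of the 50 were higher and 7 lower (all genes fitted 15.3 and 17.8%). Whether the 44 genes and these 50 differ was not tested. Of 20 genes of mitosis, 9 rose and 4 fell (all tested genes 14.3 and 12.5%), with a median of 0.31, and under the offset 10 were higher and 5 lower, with a median of 0.20. Leaving out 1 library gave 7 to 10 higher and 2 to 5 lower (all genes 6.41 to 14.2% and 5.18 to 14.4%), with 2 lower without Lv_LINC00673_3 or Lv_NC_3.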

How the data were processed

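Total RNA of 6 U2OS libraries was sequenced after TruSeq RNA library preparation, per the labels' protocols. The authors deposited whole-number read counts and FPKM values per gene, both with 1 column per library, and the genome build was hg38 per the submitters' processing notes. The sources used here do not give the aligner, counter, annotation, strand setting or FPKM length model.

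After filterByExpr and TMM scaling, counts went into edgeR 4.0.16 in R 4.3.3 (quasi-likelihood test, robust, two-sided, Benjamini-Hochberg over 21933 genes, threshold 0.05), with no covariate. SE is on the log2 scale, intervals are at 95%, and means are ± SD over 3 libraries. Fits were tested on simulated data. The members and gene lists were chosen with earlier results of these data known. Named are all 44 members, with each library's values for those past the threshold and for PCNA, MCM2, MCM7, CDC6, CDT1, ORC1, CDC45, RRM2 and TYMS; LINC00673; and the 4 highest and 4 lowest further replication genes past the threshold. Subunit ratios and the RB1 and ATRX values were chosen without such a rule.

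Alternatives were DESeq2 1.42.0, limma-voom (limma 3.58.1), RLE factors, library totals, 2 other filters, a replicate block, log2(FPKM + 1) and log2(FPKM + 0.1) in limma (genes of at least 0.1 FPKM in 3 libraries, or no filter), each library left out, and an offset of smooth terms in GC content and length of the longest GENCODE v29 transcript (mgcv 1.9.3, 16546 genes).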

Additional observations from a re-analysis of the deposited data

How the results depend on the processing

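Of 748 values of the 44 genes over 17 alternatives, 51 changed sign, in 14 genes, and none of these was called in the reported fit. These log2 fold changes are given here by alternative. With GC and length offset they were ORC2 -0.12, MCM2 0.01, MCM5 0.07, GINS1 -0.35, GINS2 0.05, POLA2 0.04, PRIM2 -0.06, POLD3 -0.02, TYMS 0.04, LIG1 0.03. With library totals alone they were MCM2 0.00, MCM3 0.03, MCM5 0.06, GINS2 0.11, GINS3 0.06, POLA2 0.07, RFC5 0.06, LIG1 0.06. With log2(FPKM + 1) they were MCM3 0.03, MCM5 0.05, GINS2 0.10, GINS3 0.06, POLA2 0.11, RFC5 0.04, LIG1 0.07. With log2(FPKM + 0.1) they were MCM3 0.03, MCM5 0.05, GINS2 0.11, GINS3 0.07, POLA2 0.11, RFC5 0.04, LIG1 0.07. With log2(FPKM + 1) and no filter they were MCM3 0.03, MCM5 0.05, GINS2 0.10, GINS3 0.06, POLA2 0.11, RFC5 0.04, LIG1 0.07. With DESeq2 they were GINS1 -0.02, CHAF1A -0.02. With RLE factors they were GINS1 -0.02, CHAF1A -0.02. With no filter they were GINS1 -0.01, CHAF1A -0.01. Leaving out 1 library, the log2 fold change ranged from -0.11 to 0.09 for GINS1, from -0.12 to 0.02 for GINS2 and from -0.08 to 0.05 for CHAF1A. The counts moved by over 1.5 times in these cases. Of the 44 genes, the lower numbered 2 with library totals alone, 2 with log2(FPKM + 1), 2 with log2(FPKM + 0.1) and 1 with log2(FPKM + 1) without a filter, where the higher numbered 7. Over all genes, the lower numbered 1224 (5.58%) with library totals, 1224 (5.74%) with log2(FPKM + 1) and 1220 with log2(FPKM + 0.1). In the reported fit they numbered 2738 (12.5%). With log2(FPKM + 1) and no filter, 1140 of all genes were higher and 396 lower, against 3145 and 2738 in the reported fit. Leaving out 1 library gave 6.41 to 14.2% higher and 5.18 to 14.4% lower over all genes. It gave 5 to 16 higher and 2 to 8 lower of the 44, and 9 to 20 higher and 2 to 6 lower of the 50 further replication genes. Of these 50, 6 were higher and 0 lower with log2(FPKM + 1) without a filter (3 lower at an unadjusted p under 0.05), 2 lower with library totals, and 3 lower with log2(FPKM + 1) or log2(FPKM + 0.1). The median of the 44 was 0.36 with library totals, 0.07 with the GC and length offset, 0.35 with log2(FPKM + 1), with or without a filter, and 0.37 with log2(FPKM + 0.1). The causes were not tested.

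Nothing in the labels pairs libraries of equal number. Same-numbered libraries had deviations from their group means correlated at -0.42, -0.36 and 0.04 over 12349 genes. No Lv_LINC00673 library correlated best with the Lv_NC library of its own number. Among the Lv_NC libraries only Lv_NC_3 did, at 0.04 against 0.03 with Lv_LINC00673_2. Such deviations cancel out over the 3 libraries of a group, and libraries of a group also differed with GC content. These correlations therefore cannot decide whether the libraries were paired. With the replicate number as a block, edgeR called 4 of the 44 genes higher and 0 lower (6 lower at an unadjusted p under 0.05), 2 of the 50 further genes higher and 0 lower (5 lower at an unadjusted p under 0.05), and 800 genes higher and 408 lower in all. The 4 were ORC1, MCM10, POLA1 and RFC1. MCM6, POLD2 and RFC2, which were called with each library left out, did not pass with the block. The 3 libraries of a group limit the precision.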

Other observations

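RB1, the repressor of E2F factors, is outside the 44 genes. It stood at 11.1, 18.3 and 17.2 CPM in the Lv_LINC00673 libraries and at 7.28, 4.47 and 6.5 CPM in the Lv_NC libraries, with no overlap between the groups. Its log2 fold change was 1.35 (SE 0.25, edgeR adjusted p = 0.00778), and 0.71 under the GC and length offset (adjusted p = 0.00251). ATRX, a chromatin remodeller often lost in lines that keep telomeres without telomerase, stood at 22.9, 33.4 and 29.1 CPM against 15.5, 7.97 and 11.3 CPM, a log2 fold change of 1.29 (adjusted p = 0.0086), and of 0.40 under the offset (adjusted p = 0.0156). The transcripts of both are low in GC, at 37.3 and 36.8%.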
